A study of Mus musculus with 38 samples.

Results

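SOX2 occupancy of chromatin was compared between mitotic and asynchronous mouse embryonic stem cells over 15081 SOX2 sites. The comparison used the 14264 sites with signal above 0 in both phases, and the 817 sites at 0 in either phase were set apart. The SOX2, HSF1 and HSF2 sites of the series number 18948 in all. CUT&Tag, in which an antibody directs the Tn5 transposase to the DNA beside its target, was performed with an antibody against endogenous SOX2 in JM8 cells, with no transgene named in the labels of these samples. Asynchronous cells (A) were left untreated, and mitotic cells (M) were collected by shake-off after 6 h in 50 ng/ml nocodazole, which blocks the spindle. Each phase had 2 libraries, of the 38 libraries in the series. Mitotic and asynchronous cells differ in the nocodazole and the shake-off as well as in phase, and these cannot be told apart. All cells were grown on gelatin with serum and LIF. The labels give no genotype or passage for the line. No RNA was analysed here, so the cell type could not be checked against its markers.

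SOX2 is a transcription factor with an HMG box, which binds short elements in the minor groove and bends the DNA. In embryonic stem cells it often binds beside OCT4 (encoded by Pou5f1) on a composite element made of a SOX half-site and an OCT octamer, and together with NANOG these factors keep the cells pluripotent. During mitosis chromosomes condense and transcription largely stops, and SOX2 is among the factors known to stay associated with mitotic chromosomes.

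Each value is the mean coverage per base over a site, scaled by the authors to Drosophila cells added to the samples. The Drosophila cells were added in proportion to the number of mouse cells, so values are per cell and not per copy of the DNA. The part of DNA content in the level of M against A was not tested. No IgG signal was subtracted here. The columns are named as means and were taken as averages over both libraries of a phase. No separate library values were used here, so the spread between libraries is unknown and no difference between the phases was tested. The ratio log2 M/A was taken at each site, and sites were put in classes by its size alone. Sites with at least 2-fold more signal in mitosis (log2 M/A of 1 or more) were called gained, those with at least 2-fold less were called lost, and the rest were called kept. A 95% interval given with a median is an order-statistic interval over sites. It describes these averaged tracks and not biological replicates.

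SOX2 sites held the SOX half-site, the OCT octamer and their composite more often than windows beside them. The sites were taken from the literature and not called on these samples, so the shares describe that list. The letters CATTGT, on either strand, were present in 30.6% of the 15081 sites, against 14.5% and 13.8% of windows of equal width 2 kb to the left and to the right. The octamer ATGCAAAT was present in 8.56% of sites and in 1.89% and 1.73% of the windows. The composite (CATTGT, 1 base of any kind and ATGCAAAT, with at most 2 mismatches among the 14 fixed bases) was present in 7.78% of sites and in 0.312% and 0.398% of the windows. The octamer can be part of a composite and CATTGT can be part of one too.

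The composite elements beside Nanog and Sox2 are shown first, as the sites of the core pluripotency genes that hold one. Those beside Sox9, Utf1 and Suz12 were added after their values were seen, since they are a gained site, a kept site with little difference and a site close to the limit for lost. Sequences and coordinates are from the GRCm38 (mm10) RefSeq sequence, read 5′ to 3′ on the strand of the element, and capitals mark the 15 bases of the composite.
Nanog, chr6:122707353-122707487, minus strand, 1 mismatch: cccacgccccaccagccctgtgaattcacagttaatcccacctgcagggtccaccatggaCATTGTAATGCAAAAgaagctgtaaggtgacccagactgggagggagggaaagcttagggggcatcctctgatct
Sox2, chr3:34653989-34654123, plus strand, 1 mismatch: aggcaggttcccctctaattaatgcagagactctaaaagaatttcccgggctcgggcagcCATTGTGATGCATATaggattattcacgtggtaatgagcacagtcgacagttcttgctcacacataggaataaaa
Sox9, chr11:112811206-112811340, plus strand, no mismatch: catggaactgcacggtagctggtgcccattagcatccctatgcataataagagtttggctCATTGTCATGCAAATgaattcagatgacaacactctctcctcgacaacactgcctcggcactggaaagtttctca
Utf1, chr7:139945621-139945755, minus strand, 2 mismatches: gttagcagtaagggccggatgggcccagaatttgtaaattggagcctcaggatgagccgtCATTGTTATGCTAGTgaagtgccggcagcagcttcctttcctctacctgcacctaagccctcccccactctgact
Suz12, chr11:79980735-79980869, plus strand, 2 mismatches: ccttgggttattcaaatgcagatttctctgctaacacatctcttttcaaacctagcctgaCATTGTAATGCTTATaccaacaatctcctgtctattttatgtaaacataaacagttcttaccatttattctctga

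A second set shows sites that hold CATTGT but neither the octamer nor the composite, at members of the gene lists whose mitotic signal was at or close to 2 times the asynchronous signal or more. They were chosen after their values were seen, because sites with this element alone had the highest median ratio of the motif classes (20 bases on each side are given, and capitals mark CATTGT). Other sites of this class at the same genes went both ways. An Otx2 site had 8.80 in A and 2.44 in M (-1.85), and the broader Pou5f1 site had -0.23. Further sites had -0.27 and 1.15 at Sall4 and 2.68 at Sox13. Of all sites in this class 33.6% were gained and 5.80% lost.
Pou5f1 upstream site, chr17:35490550-35490595, plus strand: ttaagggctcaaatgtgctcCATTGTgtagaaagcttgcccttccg
Sall4 upstream site, chr2:168769424-168769469, plus strand: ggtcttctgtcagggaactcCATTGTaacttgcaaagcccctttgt
Otx2 upstream site, chr14:48701043-48701088, minus strand: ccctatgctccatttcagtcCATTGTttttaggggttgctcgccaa
Sox13 upstream site, chr1:133397912-133397957, minus strand: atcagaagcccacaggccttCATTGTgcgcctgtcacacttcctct

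Over the 14264 sites SOX2 signal was somewhat higher in mitosis. The median signal was 9.56 in A and 11.6 in M, and the median log2 M/A was 0.34 (95% interval 0.31 to 0.36), with quartiles of -0.33 and 1.06. Of these sites 3819 were gained (26.8%), 9012 were kept (63.2%) and 1433 were lost (10.0%). These shares rest on the scaling, and with ratios centred on all sites 18.3% were gained and 16.1% lost. Signal was higher in M at 63.4% of sites. The same places were mostly strong in both phases: of the 1508 strongest sites in A, 1073 were also among the 1508 strongest in M (71.2% of each list). At the very top the lists shared less, since 46 of the 100 strongest sites of each phase were in both.

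**Figure D1:**
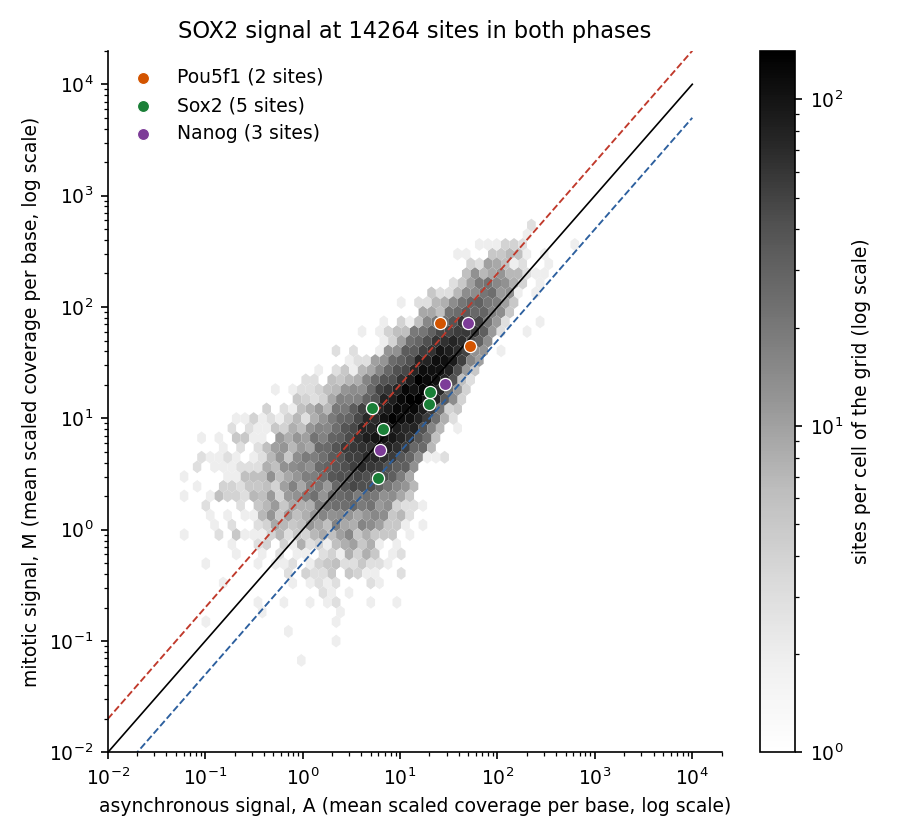
SOX2 signal at the 14264 sites above 0 in both phases, asynchronous on the x axis and mitotic on the y axis, both in mean scaled coverage per base on log scales, with grey marking the number of sites. The solid line marks equal signal and the dashed lines 2-fold more (red) and 2-fold less (blue) in mitosis. Of the coloured sites of Pou5f1, Sox2 and Nanog, 2 lie above the upper line (1 of Pou5f1 and 1 of Sox2) and 1 of Sox2 lies just below the lower one.

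The 3 core pluripotency genes had 10 SOX2 sites within 50 kb for which theirs was the nearest coding transcript start. At Pou5f1, the gene of OCT4, the intergenic site at chr17:35490399-35490772, 15246 bp upstream of the start, had 25.6 in asynchronous and 71.7 in mitotic cells (log2 ratio 1.49). The broader site at chr17:35502524-35505322, which ends 696 bp upstream of the start, had 52.5 in A and 44.7 in M (-0.23). So the same gene had a gained and a kept site, and their order of strength was reversed between the phases. The 2 sites were nearly tied in the mean of A and M, so which of them counts as the strongest for Pou5f1 rests on a small margin.

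Sox2 itself had 5 sites, all intergenic. The site with the composite shown above, at chr3:34653853-34654251 and 3448 bp downstream of the start, had 19.8 in A and 13.5 in M (-0.56). The strongest, 17523 bp downstream at chr3:34667928-34668826, had 20.1 and 17.2 (-0.22). A weaker site at chr3:34646203-34646626 had 5.93 and 2.93 (-1.02) and was the one called lost. The narrow site at chr3:34665428-34665451, of 24 bp, had 5.17 and 12.5 (1.27), and the one at chr3:34648178-34648376 had 6.71 and 8.02 (0.26).

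At Nanog the site over the transcript start, chr6:122707233-122707631, holds the composite shown above and had 28.6 in A and 20.1 in M (-0.51). The intergenic site 4258 bp upstream, chr6:122702533-122703231, was the strongest of its 3 sites, with 49.4 and 72.4 (0.55). The site 8440 bp downstream, chr6:122716008-122716281, had 6.19 and 5.24 (-0.24). All 3 were kept, with the start-proximal and downstream sites lower and the upstream site higher in mitosis.

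The spread of log2 M/A was wider among weak sites, with strength taken as the mean of A and M so that neither phase alone set the order. In the weakest decile of sites the median log2 M/A was 0.48 with an SD over sites of 2.06, and both classes were frequent, with 38.1% gained and 20.4% lost. The median was lowest in decile 3 (0.15) and highest in the strongest decile (0.63, 95% interval 0.56 to 0.66), where the SD was 0.82. Lost sites became fewer in every step from weak to strong and made up 1.19% of the strongest decile, which is 17 of 1427 sites. Gained sites made up 19.9% of decile 7 and 31.6% of the strongest. Strong sites with 2-fold less SOX2 in mitosis were thus rare by this measure.

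The order of the classes by strength depended on the measure. With quartiles of sites by A alone the strongest minus the weakest quartile was -0.85 in median log2 M/A, by M alone it was 1.02, and by the mean of both it was 0.24. A and M are each part of the ratio, so ordering by either tilts it, and no direction with strength was drawn from these values.

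**Figure D2:**
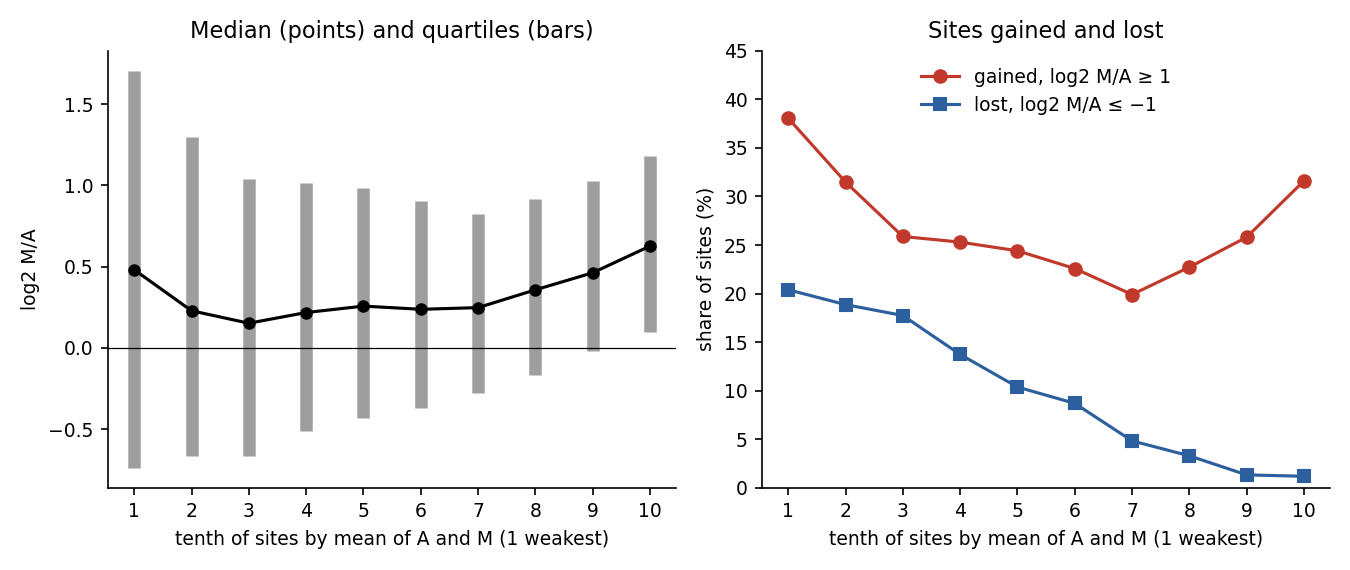
log2 M/A by deciles of the 14264 sites ordered by the mean of A and M (x axis, 1 weakest). Left, median (points) and quartile range (bars); right, share of sites gained (red) and lost (blue) in percent. Lost sites go from 20.4% to 1.19%, while gained sites go from 38.1% to 19.9% in decile 7 and stand at 31.6% in the strongest.

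The values themselves showed how much coverage stood behind a site. In A, signal multiplied by width was a whole multiple of 0.5 at 15079 of 15081 sites (within 0.02 covered bases), as it is when both libraries are scaled by 1 and averaged. In M, the 1227 sites above 0 where this product was under 170 were all sums of whole multiples of 0.124 and 0.137, as when the libraries were scaled by 0.247 and 0.275. A pair with the finer step of 0.0687 in place of 0.137 gave whole covered bases too, and the coarser pair was taken, on which the mitotic counts of covered bases and of sites from 1 library rest. The steps were searched for on the 135 of these sites with a product under 20 and had to give every one of them. That all 135 could be written in this way was therefore fixed by the search and is no check on the steps. Among whole numbers of the same precision under 20, 5.96% could be written in this way. In covered bases, summed over both libraries, a site had a median of 3607 in A and about 17014 in M, so the asynchronous values rest on less coverage. At 39.3% of those 1227 weak mitotic sites all of the covered bases came from 1 of the 2 libraries, which is the only view of single libraries that the averaged values give. Among the 11237 sites with at least 1000 covered bases in each phase, the median log2 M/A was 0.24, with 20.3% gained and 9.11% lost.

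Width followed strength. Sites were 24 to 4924 bp wide, with median A from 6.53 in the narrowest quartile to 18.5 in the widest. The median log2 M/A was 0.34 in the narrowest quartile and 0.32 in the widest, but the SD over sites went from 1.61 to 0.85. The share lost went from 16.0% to 3.48% and the share gained from 30.7% to 20.6%. Narrow sites therefore spread further to both sides around nearly the same median.

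The SOX element and the OCT element went with different ratios. Sites with CATTGT but no octamer or composite (3675 sites) had a median log2 M/A of 0.58 (95% interval 0.54 to 0.62), with 33.6% gained and 5.80% lost. Sites with the composite (1100 sites) had a median of 0.12 (0.05 to 0.19), with 19.3% gained and 11.5% lost. Sites with the octamer but no CATTGT or composite (602 sites) had a median of 0.06, with 18.3% gained and 14.5% lost. The 269 sites with CATTGT and the octamer apart had 0.24, and the 8618 sites with none of these letters had 0.28, with 25.7% gained and 11.5% lost.

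The difference in median log2 M/A between sites with CATTGT alone and sites with the composite was 0.45, and it was 0.22, 0.51, 0.47 and 0.49 within the quartiles of strength from weak to strong. In the strongest quartile 38.4% of the 1242 sites with CATTGT alone were gained and 0.886% were lost. Of the 190 strong composite sites 10.0% were gained, and 86.3% were kept. Sites with CATTGT alone also had more signal in A (median 11.5) than composite sites (7.59). Within the widest quartile of sites the medians were 0.53 and 0.12, and within the quartile of highest GC content 0.76 and 0.04. When CTTTGT was accepted beside CATTGT, the difference was 0.40.

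Seen from the classes, CATTGT was present in 36.4% of gained, 31.2% of kept and 19.3% of lost sites. The octamer ran the other way, with 5.81% of gained, 9.43% of kept and 11.1% of lost sites. Median widths of these classes were 224, 274 and 174 bp, and a wider site has more room for such letters. The part of width in these shares was not tested. The composites beside Nanog and Sox2 printed above lie in sites with ratios of -0.51 and -0.56, below the composite median. The site beside Sox9, a SOX factor of later lineages, holds a composite without a mismatch and had 21.6 in A and 50.5 in M (1.23), so the class was not uniform.

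**Figure D3:**
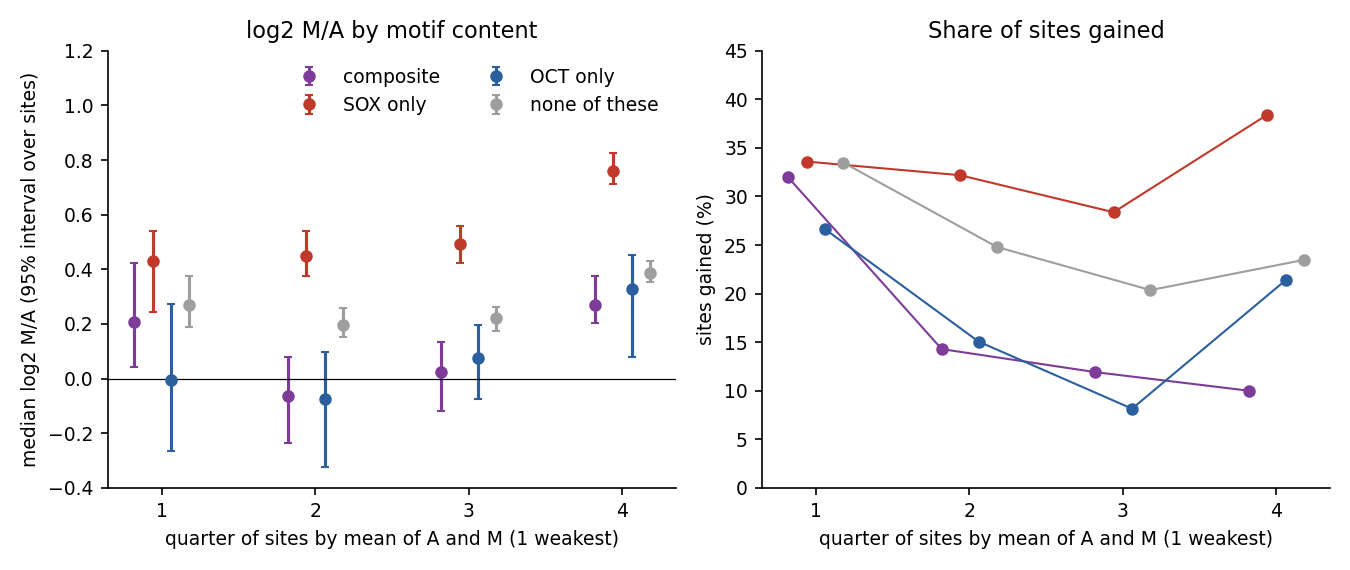
Left, median log2 M/A (y axis, bars are 95% intervals over sites) for sites with the composite, CATTGT only (SOX only), the octamer only (OCT only) or none of these, by quartile of strength (x axis, 1 weakest). Right, share of sites gained in percent. In the strongest quartile sites with CATTGT only stand at 0.76 and 38.4% gained, and composite sites at 0.27 and 10.0%.

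Base composition varied in the same direction as the ratio. The quintile of sites with the lowest GC content (20.8 to 41.7%) had a median log2 M/A of 0.15, and the quintile with the highest (50.8 to 79.2%) had 0.48. In the strongest quartile of sites the medians were 0.25 and 0.74, and in the weakest quartile 0.22 and 0.27. Sites with at least 50% repeat sequence (1732 sites) had 0.49, against 0.31 for the others. The part of base composition in the other differences was not tested beyond the motif values within GC quartiles given above.

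The ratio was also set beside the distance to the nearest coding start. The 255 sites over a coding transcript start had a median log2 M/A of 0.48 (95% interval 0.28 to 0.63), with 31.4% gained and 7.84% lost. The 756 sites within 1 kb of one had 0.41, the 2979 sites at 1 to 10 kb had 0.26, the 5008 at 10 to 50 kb had 0.33 and the 3238 beyond 100 kb had 0.38. Sites within 1 kb, those over a start included, stood 0.07 above sites beyond 10 kb in the median, and their intervals overlapped (0.31 to 0.48 and 0.33 to 0.38). In the strongest quartile sites within 1 kb had a median of 0.63 (0.50 to 0.80) and 36.4% gained, sites at 1 to 10 kb had 0.40 (0.34 to 0.48) and 23.7%, and sites beyond 10 kb had 0.52 and 27.9%. Sites in exons (368), introns (5709) and between genes (8187) had medians of 0.38, 0.31 and 0.35.

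By chromosome, medians of log2 M/A ran from 0.24 on chromosome 11 (931 sites, 95% interval 0.15 to 0.30) to 0.49 on chromosome X (340 sites, 0.39 to 0.60), where 33.5% of sites were gained. Chromosome 11 also had the highest signal, with medians of 15.3 in A and 16.9 in M. These were 1.66 and 1.5 times the medians of all other sites. Chromosome 8 came next in A, with 10.9. No karyotype was given in the sources used here, and the part of chromosome copy number was not tested. Without chromosome 11 the median over all sites was 0.34.

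**Figure D4:**
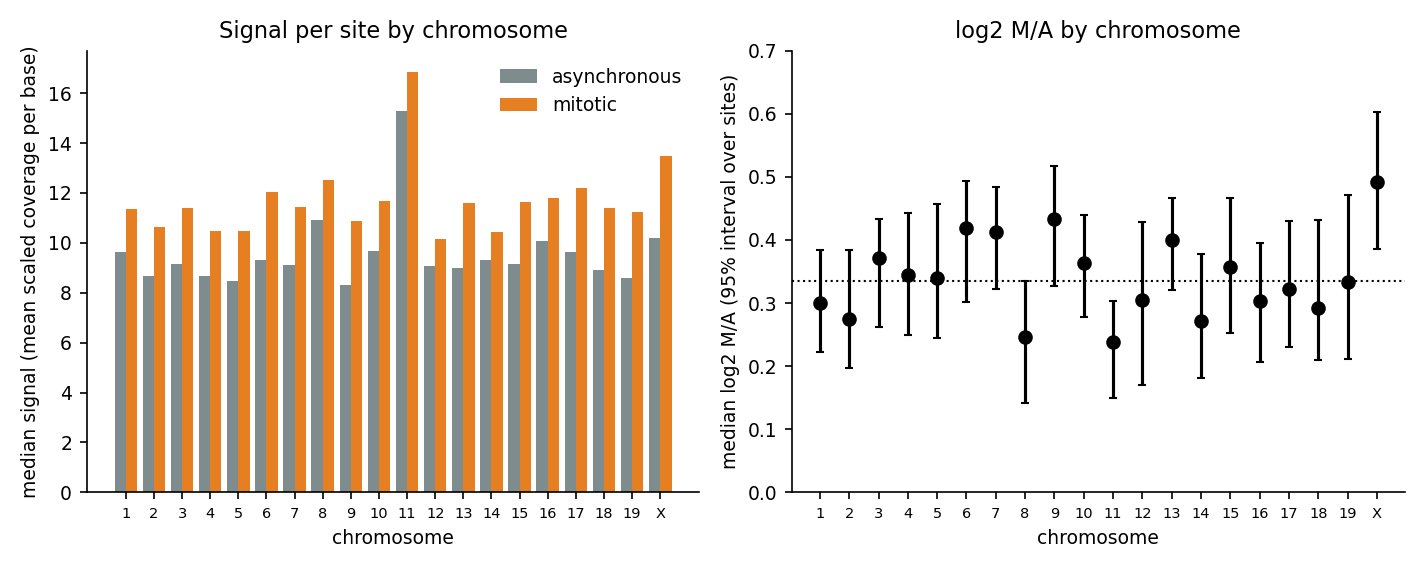
Left, median SOX2 signal per site (y axis, mean scaled coverage per base) in asynchronous (grey) and mitotic (orange) cells by chromosome. Right, median log2 M/A with 95% intervals over sites, with the dotted line at the median of all sites (0.34). Chromosome 11 has the highest signal in both phases (15.3 and 16.9) and chromosome X the highest ratio (0.49).

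Ratios were compared between neighbouring sites along the genome. Neighbouring sites less than 2 kb apart (421 pairs) differed by a median of 0.73 in log2 M/A and lay on the same side of 0 in 56.8% of pairs. For neighbours more than 200 kb apart (3590 pairs) these values were 1.09 and 54.9%. Since 63.4% of all sites were above 0, unrelated sites would often share a side too. No sharing was drawn from the same-side shares. Within the 297 genes that had at least 4 sites, the SD of log2 M/A had a median of 0.87, against 1.30 over all sites. The first is a median of SDs from few sites each and the second pools weak and strong sites. They are not like measures, and no sharing within genes was drawn from them. Of the 297 genes 64 had both a gained and a lost site, whereas 33 had all sites above 0 and 8 all sites below 0. Over all sites 26.8% were gained, 10.0% were lost and 63.4% were above 0. Etl4 had the most sites, with 2 gained, 7 kept and 1 lost among 10 with a ratio (-1.53 to 1.57). Etv5, an ETS factor downstream of FGF signalling, had 8 sites with a ratio, of which 2 were gained, 6 kept and none lost (-0.41 to 3.27).

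For genes, the strongest site with the nearest coding start within 50 kb was taken. A site was assigned to 6107 genes, and 5901 had a ratio at their strongest site, with a median log2 M/A of 0.36. Of these strongest sites 26.4% were gained and 8.47% lost. The shares for each gene list below stand beside these values. Beside the members given by rule, those past 2-fold and some with more than 1 site were named after their values were seen. Assigning a site to the nearest start does not show that the site acts on that gene.

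The median log2 M/A of the pluripotency factors lay below that of all genes. All 18 listed had a site, and 17 had a ratio, with a median of -0.22, which was 0.10 when the mean over all sites of a gene was used in place of its strongest site. Of these 2 were gained, 14 were kept and 1 was lost, and 7 of 17 were higher in M. Klf2, a Krüppel-like factor of naive cells, was the strongest, with 247 in A and 376 in M (0.61). Sall4, a zinc finger partner of OCT4, had 16.3 and 58.9 (1.85) at the site whose CATTGT is printed above. That site had the lowest A of the 5 Sall4 sites. The others had ratios of -1.02 to 1.15, with the lost one (22.1 and 10.9) 2134 bp downstream of the start. Pou5f1 was the other gained member, through the upstream site. With the strongest site chosen by A alone, 0 of the 17 were gained and 1 was lost. Zfp281, a zinc finger repressor, had 42.9 and 16.6 (-1.37), at a site 49640 bp from its start and so near the limit of assignment.

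Among the kept members of that list, Klf5 had 47.5 and 29.6 (-0.68). Nr5a2, an orphan nuclear receptor that can act on Pou5f1, had 47.9 and 35.4 (-0.44), 61 bp upstream of its start. Tcf7l1, the WNT pathway repressor, Zfp42, Rif1, Esrrb, Sox2 and Tbx3 lay between -0.28 and -0.17. Prdm14, which represses DNA methyltransferases, was strong in both phases (193 and 198.5). Tfcp2l1, Nr0b1 and Nanog had ratios of 0.27, 0.44 and 0.55. Klf4 was at 0 in A and 2.74 in M at its single site, and no ratio was taken.

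Among known joint targets of OCT4 and SOX2, no strongest site differed by 2-fold. Of 18 listed, 17 had a site and Lin28a had none, and all 17 were kept, with a median of 0.06 and a range of -0.69 to 0.95. Spp1, which encodes osteopontin, came nearest to gained, with 67.2 and 130 (0.95). Phc1, a Polycomb subunit with the strongest site of the list, had 96.5 and 151 (0.64) over its start. Fgf4, the FGF ligand of stem cells, had 29.3 and 37.1 (0.34), 2851 bp downstream of its start. Utf1, whose composite is printed above, had 12.0 and 13.0 (0.11).

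At the other end of that list, Dppa4 had 11 and 6.82 (-0.69), the lowest ratio, at a site with a mean below the median of all sites. Gdf3, a TGF-beta ligand, had 23.6 and 16.0 (-0.56), Lefty2, an inhibitor of Nodal, had 40.8 and 29.8 (-0.46), and Fbxo15 had 41.9 and 31.7 (-0.40). Dppa5a (-0.34), Tdgf1, the Nodal co-receptor (-0.28), Jarid2 (-0.05) and L1td1 (-0.0034) were also below 0. Nodal itself (0.06), Tdh (0.21), Dppa3 (0.23), Lefty1 (0.26) and Dppa2 (0.30) were above it.

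Genes of LIF, BMP, FGF and WNT signalling had a share of gained sites near that of all genes. Of 24 listed, 21 had a site and a ratio, with a median of 0.42, and 5 were gained, 16 kept and none lost. With the strongest site chosen by A alone, the median was 0.21, and 2 were gained and 19 kept. Etv4, an ETS factor of the FGF response, had 27.5 and 101 (1.88). Spry4 and Dusp6, which limit FGF and ERK signalling, had 34.9 and 84.3 (1.27) and 38.2 and 87.9 (1.2), each over a transcript start. Fgfr1, the receptor, had 22.1 and 51.3 (1.22). Id1, a BMP target, was the other gained member, with a weak site of 4 and 12.8 (1.68). The sites with the highest A at Etv4 (36.6 and 24.7, -0.57), Fgfr1 (33.3 and 22.1, -0.59) and Id1 (7.73 and 4.96, -0.64) were other sites, lower in mitosis. For Spry4 and Dusp6 the choice by A gave the same gained site. Lef1, the WNT effector with the strongest site, had 124 and 130 (0.07).

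Low ratios in that list were those of Skil, an inhibitor of SMAD signalling, with 40.7 and 22.6 (-0.85), Stat3, the effector of LIF, with 35.0 and 22.1 (-0.66), and Smad7 with 21.4 and 13.6 (-0.66). These 3 and Lifr, the LIF receptor (-0.45), were the 4 members below 0. With the site limited to 10 kb from the start, the list's median went from 0.42 to -0.02 over 18 genes. At each gene other sites could differ from the strongest: Spry4 had 7 sites with ratios of -1.26 to 1.27, and Etv4 had 4 with ratios of -0.57 to 1.88.

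Formative and lineage regulators are mostly silent or low in naive cells. Of 24 listed, 13 had a site and 11 a ratio, with a median of 0.02 (-0.17 with the strongest site chosen by A alone), and 1 was gained and 3 were lost. Otx2, a factor of the formative state, had 49.1 and 104 (1.08), 27082 bp upstream of its start. Tfap2c had 57 and 106 (0.89) and Nes, the gene of nestin, had 26.6 and 48.7 (0.87) in an intron. Zic5 had 17.0 and 7.61 (-1.16). Pax6 (0.10) and Foxa2 (0.02) were close to equal. The other lost members, Sox1 (15.5 and 2.4) and Meis1 (6.40 and 2.67), had means below the median of all sites. For Sox1 this was a site of 74 bp, 43936 bp downstream of its start. Its other site had 5.40 and 12.0 (1.16) and was nearly tied with it in the mean of A and M. With the strongest site chosen by M alone, the list had 2 gained and 2 lost. Zic2 and Gbx2 were at 0 in A, with 1.86 and 0.747 in M.

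Of the SOX family, 11 of 18 genes had a site, with a median of 0.36, 1 gained (Sox9) and 1 lost (Sox1). With the strongest site chosen by M alone, 2 were gained and none was lost, since Sox1 then counted by its other site. Sox13 had the strongest site, with 160 in A and 318 in M (0.99), and its other 2 sites had 4.54 and 29.2 (2.68) and 6.31 and 46.7 (2.89). Sox6 had 26.0 and 45.2 (0.80). The lowest among sites above the median strength were Sox5 (37.1 and 28.1, -0.40), Sox4 (13.6 and 10.9, -0.32) and Sox14 (25.8 and 21.1, -0.29).

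Genes of DNA methylation and Polycomb had no gained member at their strongest sites within 50 kb. Of 20 listed, 15 had a site, with a median of -0.05, 14 kept and 1 lost. The lowest ratios were those of the 3 core subunits of Polycomb repressive complex 2. Ezh2, its methyltransferase, had 18.5 and 6.98 (-1.41), Suz12 had 114 and 58.1 (-0.98) and Eed had 69.6 and 41.8 (-0.73). Ezh2 had 3 sites with a ratio and all were between -1.41 and -0.94, while a 24 bp site was at 0 in A and 3.02 in M. Eed also had sites of 0.19, 0.57 and 0.73, beside one of -1.39 that holds a composite. Mtf2, an accessory subunit with the strongest site, had 127 and 124 (-0.04). Phc1 (0.64), Rnf2 (0.52) and Dnmt3b (0.39) were the highest. With the site limited to 10 kb from the start, the list's median was 0.05, and of 12 members 1 was gained, 11 were kept and none was lost. The gained member was then Mtf2, with 26.0 and 53.0 (1.03) over its start. In that window Ezh2 was kept (-0.94), Eed had 0.19 and Suz12 had no site.

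Of 22 cell cycle and mitosis genes, 11 had a site and 10 had a ratio, with a median of 0.30, 3 gained and 1 lost. Top2a, topoisomerase II of mitotic chromosomes, had 7.59 and 34.8 (2.20), 98 bp upstream of its start. The centromeric histone gene Cenpa had 36.3 and 66.6 (0.88) and Cdc25a had 28.2 and 38.0 (0.43). Aurkb (-0.12), Bub1b (0.07) and Cdkn1a (0.17) were the lowest above the median strength. Aurka, the mitotic kinase, had 1.5 and 10.5 (2.81) over its start, but in a site of 49 bp with 147 covered bases in A. Kif11, a spindle motor (3.34 and 11.1), and Cdk1, the mitotic kinase (14.6 and 6.91), were the other members past 2-fold, and Wee1 was at 0 in A. Aurka, Kif11 and Cdk1 were named after their values were seen.

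Immediate early genes and MYC had 9 of 14 members with a site, a median of 0.51, 3 gained and none lost. Mycl had 7.42 and 17.9 (1.27). Egr2 and Klf6, the other gained members, had weak sites (3.26 and 8.46, and 2.81 and 6.15). Ier2 had the strongest site (66.1 and 62.6), Ier3 had 0.51, and Myc (-0.25), Junb (-0.20) and Mycn (-0.12) were below 0. When the strongest site was chosen by A alone, the list's median was -0.08.

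Heat shock genes had 8 of 14 members with a site, a median of 0.29, 2 gained and 1 lost. Hsph1 had the strongest site (78.5 and 91.0, 0.21). Hsp90ab1, a cytosolic chaperone of the HSP90 family, had 7.49 and 25.7 (1.78), 1375 bp upstream. Hspe1, Hspa8 and Hspa4 had 0.54, 0.31 and 0.27, and Hsp90aa1 had 33.9 and 33.0 (-0.04). Past 2-fold were also Hspb1, with 0.685 and 6.80 (3.31), and Hspa1b, with 3.40 and 0.600 (-2.50), both at weak sites and named after their values were seen.

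**Figure D5:**
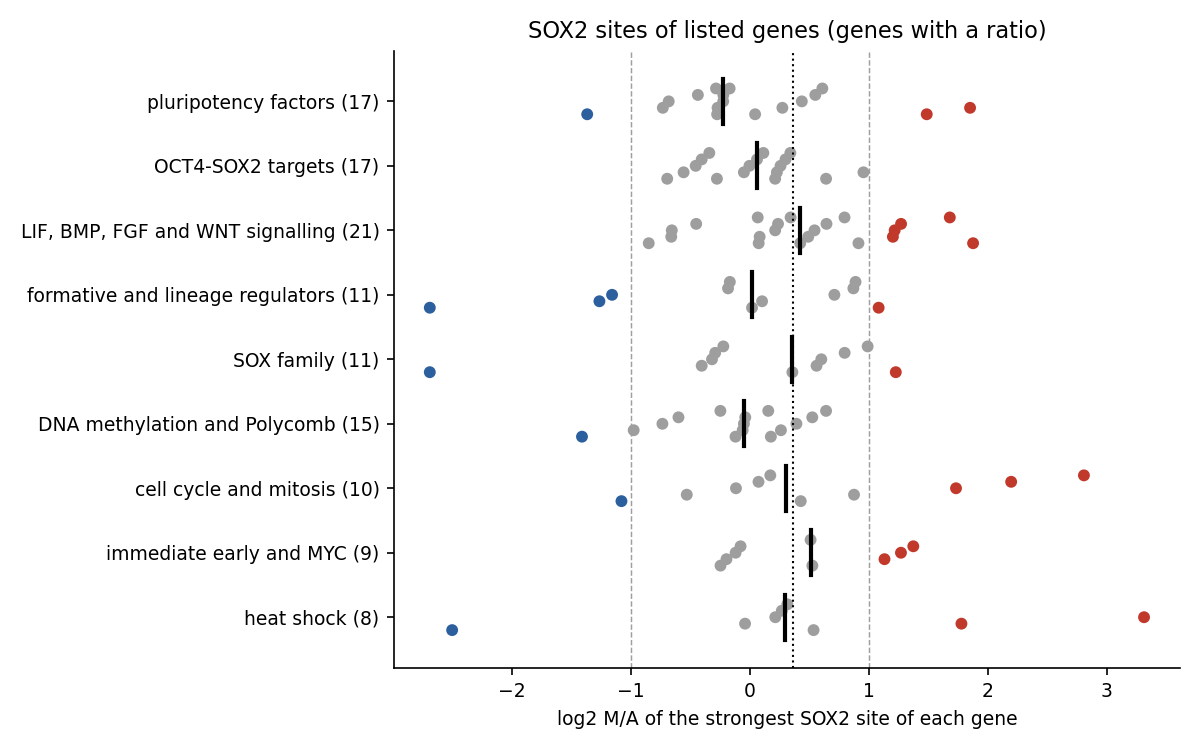
log2 M/A (x axis) of the strongest SOX2 site of each listed gene, 1 point per gene, in 9 lists with the number of genes with a ratio in brackets. Red points are gained, blue lost and grey kept; black bars are list medians, dashed lines mark 2-fold, and the dotted line is the median of all 5901 genes (0.36). Pluripotency factors have a median of -0.22 and signalling genes 0.42.

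Over all 166 listed genes, 119 had a site and 115 a ratio. Of these 17 were gained, 91 kept and 7 lost, with a median of 0.17. The lists were drawn up with results of these data known, and with no spread between libraries a list median cannot be set apart from that of other genes.

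The largest ratios among sites at or above the median strength and within 50 kb of a coding start (4667 sites) came from low values in A. C1qtnf7 had 0.218 and 24.5 (6.81), Shroom3 had 0.500 and 37.8 (6.24) and Uggt1 had 0.745 and 22.9 (4.95). They rested on 54, 24 and 73 covered bases in A. Slc12a7, Zfp266, Sik1, Slc2a12, Sfrp2, Arhgap42 and Mvb12b followed with 4.05 to 4.61 and 0.867 to 2.29 in A. They passed the limit on strength through M alone.

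The lowest ratios were less extreme past the first. Agps, a peroxisomal enzyme of ether lipid synthesis, had 21.9 and 0.107 (-7.67) in an intron, at chr2:75855888-75855986, where about 81 covered bases were left in M against 4333 in A. Cspg5 had 20.6 and 1.52 (-3.76). Rcn1, Camk1d, Itgav, Med14, Gfpt2, Pou2f3, Spsb1 and Lrrc2 had -2.69 to -2.29. All of these sites, with 0.107 to 6.48 in M, passed the limit on strength through A alone.

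The 10 strongest sites within 50 kb of a coding start went both ways. Outside that limit, the highest signal of all in M was at chr2:5379155-5379278, with 754 in A and 4907 in M. The highest of all in A, 48373 bp upstream of the nearest start, that of Chl1, at chr6:103648904-103649377, had 9926 in A and 3388 in M (-1.55). Its unscaled coverage was 9.41e+06 covered bases in A and about 1.23e+07 in M. Gm10719 (1161 and 301, -1.95) and Gm11168 (882 and 228, -1.95), both at the start of chromosome 9, were 95.6% and 87.8% repeat sequence. Their unscaled coverage was about the same in both phases, at 86419 covered bases in A and about 85487 in M for Gm11168, so their ratio is close to that of the scaling values alone. Arl4d (-0.84), Alyref2 (-0.87), Tex14 (-0.61) and Kctd16 (-0.19) were lower in M. Tcea1, a transcription elongation factor, had 223 and 587 (1.40), Ctsd, the protease cathepsin D, had 293 and 746 and Nxn had 432 and 875 (1.02).

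Among the strongest decile of sites within 50 kb of a start, named after their values were seen, the highest ratios were those of Mfsd13b (6.80 and 102, 3.91), Ghrh, the gene of growth hormone releasing hormone (12.0 and 162, 3.75), and Crybg1 (8.26 and 106, 3.68). Wbp1 had 25.7 and 189 (2.88), 10 bp upstream of its start. These high sites passed the limit of the strongest decile (a mean of 47.5) through M alone. Apart from repeat-rich sites of chromosome 9, the lowest was that of Zfp11 (95.2 and 25.3, -1.91), which holds a composite. Its unscaled coverage was about the same in both phases, at 228265 covered bases in A and about 232684 in M. Its ratio is thus close to that of the scaling values alone. Next were Ankle1 (269 and 81.6, -1.72), at a site with 77.7% repeat sequence, and Kif2c (202 and 65.9, -1.61). Kif2c is a mitotic kinesin that removes tubulin from microtubules. A second strong site upstream of Kif2c had 89.8 and 33.0 (-1.44), so both of these sites near that gene were lost in scaled signal. Their unscaled coverage was not lower in mitosis, at 90376 covered bases in A and about 113011 in M for the first. The second had 40230 and about 56609, and Ankle1 had 120554 and about 140039. Summed over all sites, covered bases in M were 4.89 times those in A. The class of these sites as lost thus rests on the scaling values. Zfp11 and the second Kif2c site passed the limit of the strongest decile through A alone, while Ankle1 and the first Kif2c site were above it in both phases.

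Of the 817 sites apart, 708 were at 0 in A alone, 53 in M alone and 56 in both. They were narrow, with median widths of 99, 74 and 49 bp against 249 bp elsewhere. The sites at 0 in A with the most signal in M had 17.8 (nearest start 1700029P11Rik), 16.4 (Dscam, a neuronal adhesion molecule), 14.7 (Mef2c), 14.2 (Cdh6) and 13.9 (Tbl1xr1), the last 4 more than 50 kb from that start. The sites at 0 in M with the most signal in A had 8 (Sh2d4a), 7.50 (Pld5), 7.30 (Kcne1), 6.50 (Lrmda) and 6.50 (Sipa1l2). Since A had less coverage behind a unit of signal, a 0 there is not a like measure to a 0 in M.

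Where SOX2 sites overlapped those of the heat shock factors by at least 1 bp, SOX2 had 0.23 at the 596 sites shared with HSF1, with 18.5% gained and 22 sites lost, while HSF1 had a median of -0.58 there. SOX2 had the higher ratio at 82.7% of these places. Over all 1726 HSF1 sites the quartiles of HSF1 were -0.89 and -0.34, and those of SOX2 over its 14264 sites were -0.33 and 1.06. The share is therefore not read as particular to the shared places. At the 428 sites shared with HSF2 the medians were 0.23 for SOX2 and 0.28 for HSF2, and SOX2 had the higher ratio at 53.3% of places. The 779 SOX2 sites that overlapped either had more signal (median 37.7 in A) than the others (8.99). In the strongest quartile alone, overlapping SOX2 sites had a median log2 M/A of 0.27 and the others 0.55. Each factor has its own antibody and libraries, and these ratios stand side by side without a test.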

How the data were processed

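SOX2 CUT&Tag was measured in 2 asynchronous and 2 mitotic libraries of JM8 cells. Per the study's methods, the authors aligned reads to mm10 and to the Drosophila spike-in genome (dm6) with Bowtie2, kept duplicates and made scaled coverage with deepTools. The column names give the values as means, taken here as averages over replicates. The deposited signal values are this coverage, as a mean per base over SOX2 sites taken from the literature and not called on these samples. The 6 columns without a row in the column map were not used. Groups followed the sample labels.

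From these values log2 M/A was taken where both were above 0, with no pseudocount. Sites were assigned to the nearest protein-coding transcript start (GENCODE M21, mm10) within 50 kb, and motifs were searched on both strands of the RefSeq GRCm38 sequence. Strength is the mean of A and M. Since the columns are averages, there is no spread between libraries, no test was run, and sites are not replicates. Library totals are not known from these values, and intervals cover the spread over sites only.

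Sites were named by rule: all sites of Pou5f1, Sox2 and Nanog; per gene list the member of highest mean and the 3 highest and 3 lowest ratios at or above the median strength of 10.9; the 10 highest, 10 lowest and 10 strongest sites within 50 kb of a start; and the 5 highest sites at 0 in 1 phase. The values of 1 list member are not reported here. Members and lists were chosen with earlier results of these data known. The summaries were tested on simulated data. Python 3.11.15, pandas 2.3.3, numpy 2.4.6, scipy 1.17.1 and matplotlib 3.10.9 were used. Alternatives varied the pseudocount, centring, filters, strength measure, gene window and choice of site.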

Additional observations from a re-analysis of the deposited data

How the results depend on the processing

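The median log2 M/A (0.34), the share gained (26.8%) and the share lost (10.0%) stayed close to these values with a minimum mean of 1, on autosomes, and without the top 1% of sites or chromosome 11 (the last 2 chosen after seeing the data). A pseudocount of 0.1 gave a median of 0.39 and 29.4% gained, and a pseudocount of 1 gave 24.5% gained and 7.21% lost. Sites at or above the median strength had 0.39, 24.5% gained and 3.87% lost. Centring on the weakest quartile gave 0.068, 19.7% and 14.6%, and centring on all sites gave 18.3% gained and 16.1% lost. Sites under 50% repeat had a median of 0.31, and sites of at least 150 bp had 25.3% gained and 7.83% lost. Sites with at least 1000 covered bases, chosen after seeing the data, had 0.24, 20.3% and 9.11%.

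The difference between the strongest and the weakest quartile (0.24) was -0.85 by A, 1.02 by M, -0.19 with a pseudocount of 0.1 and 0.068 with 1, so its direction rests on these choices. The widest minus the narrowest quartile (-0.02) was -0.10, -0.10 and -0.14 within strength quartiles 1 to 3 and -0.14 with a pseudocount of 1. CATTGT alone minus the composite (0.45) was 0.22 in the weakest strength quartile. Sites within 1 kb minus those beyond 10 kb of a start kept a difference of 0.05 to 0.07. Of the listed genes 17 were gained and 7 lost; with the mean over all sites of a gene 10 and 4 were, and with the strongest site by A 11 were gained. The causes of these shifts were not tested.

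No library was left out in turn, because each column is an average over both. No paired analysis was possible because the result comes from no test and the columns carry no replicate numbers. Depth limits the weak sites most, since asynchronous values rest on fewer covered bases than mitotic ones, and ratios of sites with few covered bases in A are the least certain.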
